A study of Mus musculus with 6 samples.

Results

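Ganglion cell nuclei that held Eomes or Opn4 RNA were examined in single-nucleus RNA-seq data from the retina of rd10 mice. Nuclei were taken with more than 500 UMIs (unique molecular identifiers, each counting 1 captured RNA molecule), at least 200 genes and under 5% mitochondrial counts. A ganglion cell nucleus had at least 2 UMIs of Slc17a6 (the vesicular glutamate transporter of ganglion cells) and at least 1 UMI of Rbpms (an RNA-binding protein found in ganglion cells), with no UMI of Slc6a9, Trpm1 or Abca8a, which mark glycinergic amacrine, ON bipolar and Muller cells. Of 56205 nuclei past the filters, 861 met these conditions, and the 55 of them with at least 1 UMI of Eomes or Opn4 are described here. The members were thus chosen by their own measured UMIs of these 7 genes, whose levels are no finding. The other 806 ganglion cell nuclei, with neither gene, are the comparison.

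All libraries came from the B6.CXB1-Pde6b-rd10/J strain, in which a mutation of the rod phosphodiesterase gene Pde6b causes photoreceptor degeneration, so the saline controls carry it as well. Eyes received recombinant IL-27 (20 ng) or saline into the vitreous on post-natal day 18, and retinas were taken on post-natal day 20. There were 3 saline control libraries (replicates 1, 2 and 6) and 3 IL-27 treated libraries (replicates 4, 5 and 10). The labels name no animals. The methods give 3 retinas per group and 1 injected eye per mouse, so the libraries came from different mice. For IL-27 against saline, p-values measure the spread between these libraries. Where the library is a block, they measure how the difference between classes of nuclei varies over the libraries. The libraries shared 18 to 30 cell barcodes per pair. Values per library are given below in the order saline 1, 2 and 6, then IL-27 4, 5 and 10.

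Opn4 encodes melanopsin, the photopigment of the intrinsically photosensitive ganglion cells, which respond to light without rods or cones and set the circadian clock and the pupil reflex. Melanopsin acts through a Gq protein and phospholipase C to open TRPC cation channels. Eomes, also called Tbr2, is a T-box transcription factor that these cells need for their formation and upkeep.

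Of the 55 nuclei, 10 held both genes, 27 held Eomes only and 18 held Opn4 only, so that 37 had Eomes and 28 had Opn4. Most rested on little: 39 had exactly 1 UMI of the 2 genes together, 16 had 2 or more, 9 had 3 or more, and the highest had 6. At the limits of the rule, 24 members had exactly 2 Slc17a6 UMIs and 1 had exactly 1 Rbpms UMI. A further 27 nuclei with Eomes or Opn4 had only 1 Slc17a6 UMI and otherwise met the rule, and 26 more had been removed for a UMI of Slc6a9, Trpm1 or Abca8a. The members had a median of 12889 UMIs (3811 to 29591) and 4323 genes, against 11210.5 UMIs and 3981 genes in nuclei with neither gene. In GENCODE M21 (GRCm38), matched on the gene identifier, Opn4 lies on chromosome 14 from 34590618 to 34600142 on the minus strand, and Eomes on chromosome 9 from 118478212 to 118486132 on the plus strand.

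Eomes or Opn4 was detected in 6.39% of ganglion cell nuclei (55 of 861, exact 95% interval 4.85 to 8.23%, median 11285 UMIs). The share was 0.459% in bipolar nuclei (37 of 8056, 0.324 to 0.633%, median 4622.5 UMIs) and 0.345% in Muller nuclei (12 of 3477, 0.178 to 0.602%, median 4484 UMIs), which should lack both genes. After every nucleus was thinned to 3000 UMIs, the shares were 1.87% of 857 ganglion cell nuclei, 0.282% of 6726 bipolar nuclei and 0.137% of 2925 Muller nuclei. The intervals cover counting error only. At equal depth the ganglion cell share (1.07 to 3.01%) stood above the bipolar (0.170 to 0.441%) and Muller (0.0373 to 0.35%) shares.

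The ganglion cell identity was checked on 14 further markers, all of which were detected in the members, with summed levels of 3288 to 4096 CPM (UMIs of the genes per 1000000 UMIs of the summed nuclei) against 3184 to 3452 CPM in nuclei with neither gene. Amacrine markers summed to 116 to 267 CPM in members and 135 to 206 CPM in the comparison, with the members higher in 4 of 6 libraries. Bipolar markers without Grik1, a receptor gene described with the receptors, summed to 0 to 47.6 CPM and 15.6 to 30.0 CPM, with the members higher in 2 of 6 libraries. With Grik1 kept, bipolar markers summed to 58.2 to 580 CPM in members and 308 to 415 CPM in the comparison. The members were higher only in saline replicate 6. Rod, horizontal and Muller markers overlapped between the classes. The members of saline replicate 6 stood at 363 CPM of rod and 363 CPM of Muller markers, above every comparison library (at most 211 and 214 CPM). RNA of other cells was found at low levels: of 6 microglia markers 5 were detected in members (all but C1qb), at 69.8 to 387 CPM against 86.1 to 128 CPM, highest in saline replicate 6. Of 6 cone markers 5 were detected (all but Cnga3), at 17.9 to 135 CPM against 20.2 to 45.3 CPM, highest in saline replicate 2. Astrocyte (all but Pax2) and endothelial markers (all but Cldn5) had 2 of 3 detected each, at 0 to 17.5 and 0 to 22.0 CPM in members. Of the 55 members, 12 had a UMI of Gad1, Gad2 or Slc32a1, which mark inhibitory neurons. The 8% of nuclei with the highest Scrublet scores in each library were marked as doublets, among them 0 members and 15 comparison nuclei.

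The libraries gave 11, 9 and 5 such nuclei in saline and 6, 14 and 10 in IL-27, or 6.63, 6.57 and 3.79% of ganglion cell nuclei in saline and 3.53, 9.03 and 9.90% in IL-27. The groups overlapped. The mean share was 7.49% ± 3.46 (SD, n = 3) in IL-27 and 5.66% ± 1.62 in saline, a difference of 1.83 percentage points (two-sided exact permutation test, p = 0.5; the smallest p this design allows is 0.1). Without IL-27 replicate 4 the difference was 3.81 points (exact permutation p = 0.2), and without IL-27 replicate 10 it was 0.620 points (exact permutation p = 1). After thinning it was 0.178 points (exact permutation p = 1). Eomes was found in every library, with 10, 9, 3, 7, 12 and 9 UMIs. Opn4 had 7, 7 and 4 UMIs in saline and 0, 11 and 8 in IL-27, and all 6 members of IL-27 replicate 4 held Eomes only. The summed members held 167976, 155513 and 41357 UMIs in saline and 90735, 171821 and 145992 in IL-27, and a count of 0 allows up to 72.5 CPM in saline replicate 6, the shallowest.

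**Figure D1:**
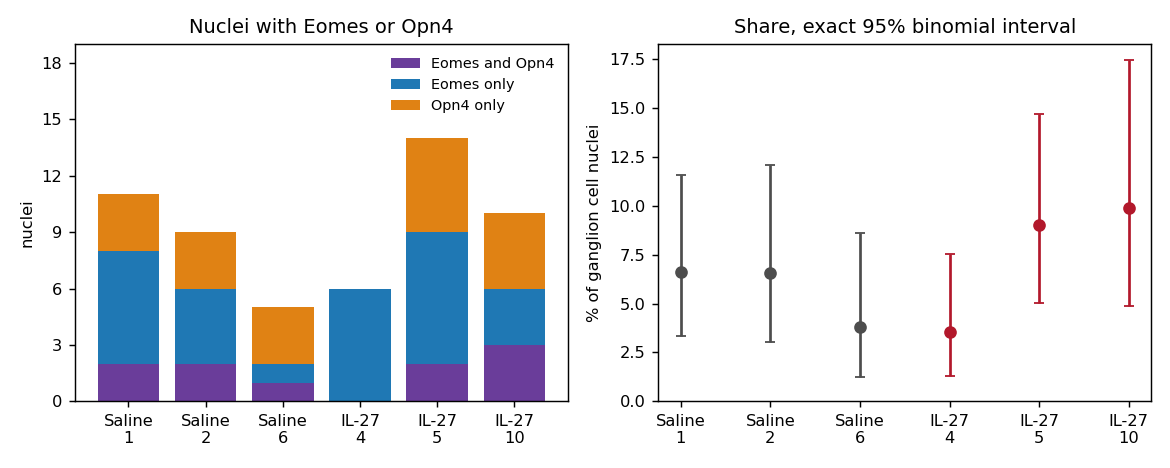
Left, the number of nuclei with Eomes and Opn4, Eomes only or Opn4 only in each library (bars, from 5 to 14 nuclei). Right, their share of ganglion cell nuclei in percent, with the exact 95% binomial interval, in saline (grey) and IL-27 (red); the shares of the 2 groups overlap.

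Ganglion cell nuclei with Eomes or Opn4 differed from those with neither in 274 of 7937 genes tested, 3.45% of them, of which 125 were higher (1.57%) and 149 lower (1.88%). The counts were summed per library and class and compared by edgeR's quasi-likelihood test with the library as a block, and calls have a Benjamini-Hochberg adjusted p under 0.05. The 7 genes used to choose the nuclei are left out of all such counts. All 149 lower genes reached the filter (16.1 CPM) in the 6 comparison sums alone, but 27 of the 125 higher genes did not and entered the test through the members, where they are high, so their being called is no separate evidence. Among genes named below these were Tbx20, Prkcq, Oprm1, Ccdc192, Gm19519, Ctxn3, Pou4f2, Spp1, Prph, Gabra3 and Junb. The T-box factor Tbx20, the kinase Prkcq and the opioid receptor Oprm1 were among the genes higher in the members, and the ganglion cell genes Car10 and Nell2 and the netrin receptor Dcc among those lower. DESeq2 called 103 of the 125 and 88 of the 149 in the same direction. When each member was set against 1 nucleus of equal depth from its library, 2807 genes could be tested, and 32 of 84 higher and 29 of 112 lower genes were still called, while the direction was kept by all 84 and all 112. Matching kept only 1 comparison nucleus per member, out of 806, so far fewer UMIs stood behind each test. Whether calls lost at matched depth were lost through depth or through fewer UMIs was not tested.

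**Figure D2:**
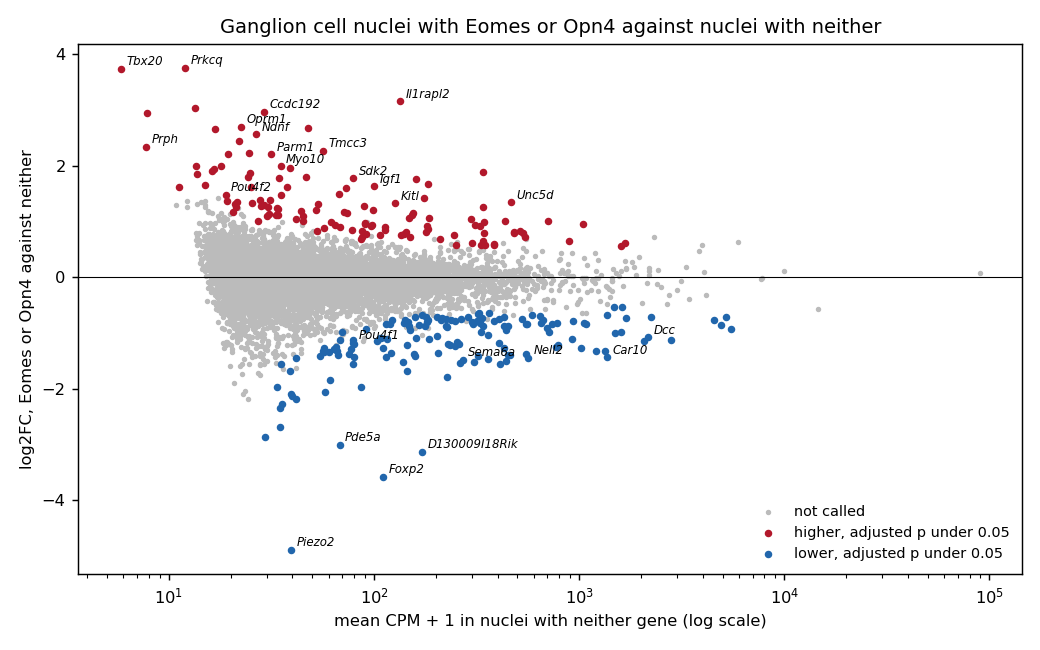
Each point is 1 of the genes tested. The horizontal axis is the mean CPM + 1 in nuclei with neither gene (log scale) and the vertical axis the log2FC of nuclei with Eomes or Opn4 against them; red and blue mark the 125 higher and 149 lower genes. Prkcq (log2FC 3.75) and Tbx20 (3.74) lie highest.

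Of 23 genes in the list for this cascade, 14 were tested, of which 0 were called higher and 1 lower (7.14%, against 3.45% of all genes), with a median log2FC of -0.01 against -0.02 over all genes. Gnaq, the G protein alpha subunit, had 309.7 ± 82.8 CPM in members and 277 ± 15.6 in the comparison (n = 6 libraries; log2FC 0.09, SE 0.16, adjusted p = 0.931). Plcb4, the phospholipase of this cascade, had 355 ± 69.9 and 316 ± 22.3 CPM (log2FC 0.17, adjusted p = 0.828). Plcb1, another phospholipase C, was the gene called lower (431 ± 136 against 737 ± 114 CPM, log2FC -0.83, SE 0.17, adjusted p = 0.00303), lower in all 6 libraries, and its adjusted p was 0.0699 at matched depth.

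The channel gene Trpc7 did not pass the count filter, since only 5 of its 12 sums, all from members, reached 16.1 CPM. It had 29.8, 77.2, 72.5, 11, 46.6 and 75.3 CPM in the members, from 40 UMIs in 12 nuclei, against 1.49 to 2.95 CPM in nuclei with neither gene, from 23 UMIs in 22 of 806 nuclei. The 2 classes did not overlap in any library. Without the filter, edgeR gave it a log2FC of 4.09 (adjusted p = 3.62e-15). The smallest adjusted p of that edgeR fit was 3.44e-59, against 1.43e-09 with the filter. The value for Trpc7 therefore cannot be ranked beside the adjusted p-values of the filtered genes. Of the 40 UMIs, 12 came from a single nucleus.

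Among 19 genes linked to melanopsin ganglion cells, 5 were tested, with 3 higher and 1 lower (80% called, against 3.45% of all genes). Their median log2FC was 1.63, but Tbx20 and Oprm1 were tested only through their level in the members. Tbx20, a T-box transcription factor, had 65.5, 57.9, 24.2, 33.1, 58.2 and 123 CPM in the members and 1.02 to 9.24 CPM in the comparison (log2FC 3.74, SE 0.44, adjusted p = 2.39e-06). All 6 libraries of members were above all 6 of the comparison, and Tbx20 was found in 14 of 55 members and 10 of 806 other nuclei. Oprm1, the mu opioid receptor, had 137, 116, 24.2, 88.2, 215 and 151 CPM against 10.2 to 35.4 CPM (log2FC 2.70, SE 0.30, adjusted p = 1.23e-06). Saline replicate 6, with 1 Oprm1 UMI, lay within the range of the comparison. Igf1, a growth factor, had 429, 264, 121, 132, 367 and 432 CPM against 59.1 to 129.8 CPM (log2FC 1.63, SE 0.22, adjusted p = 1.93e-05). The classes overlapped, and its call was lost at matched depth (log2FC 1.35, adjusted p = 0.0741).

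The muscarinic receptor Chrm3 was the lower gene of that list, at 168 ± 108 against 303 ± 49.8 CPM (log2FC -0.84, adjusted p = 0.0443), and 7 of its 17 alternative fits called it. Rasgrp1, a Ras exchange factor present in some melanopsin cells, was below the filter, with 20 UMIs in 13 members (30.2 ± 22.7 CPM) and 44 UMIs in 29 other nuclei (4.67 ± 2.41 CPM). Its members stood above the comparison in every library. Adcyap1, the peptide PACAP of the melanopsin pathway to the brain, had 8 UMIs in 6 members (11.1 ± 10.5 CPM) and 80 UMIs in 72 other nuclei (8.04 ± 1.45 CPM), which overlapped.

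**Figure D3:**
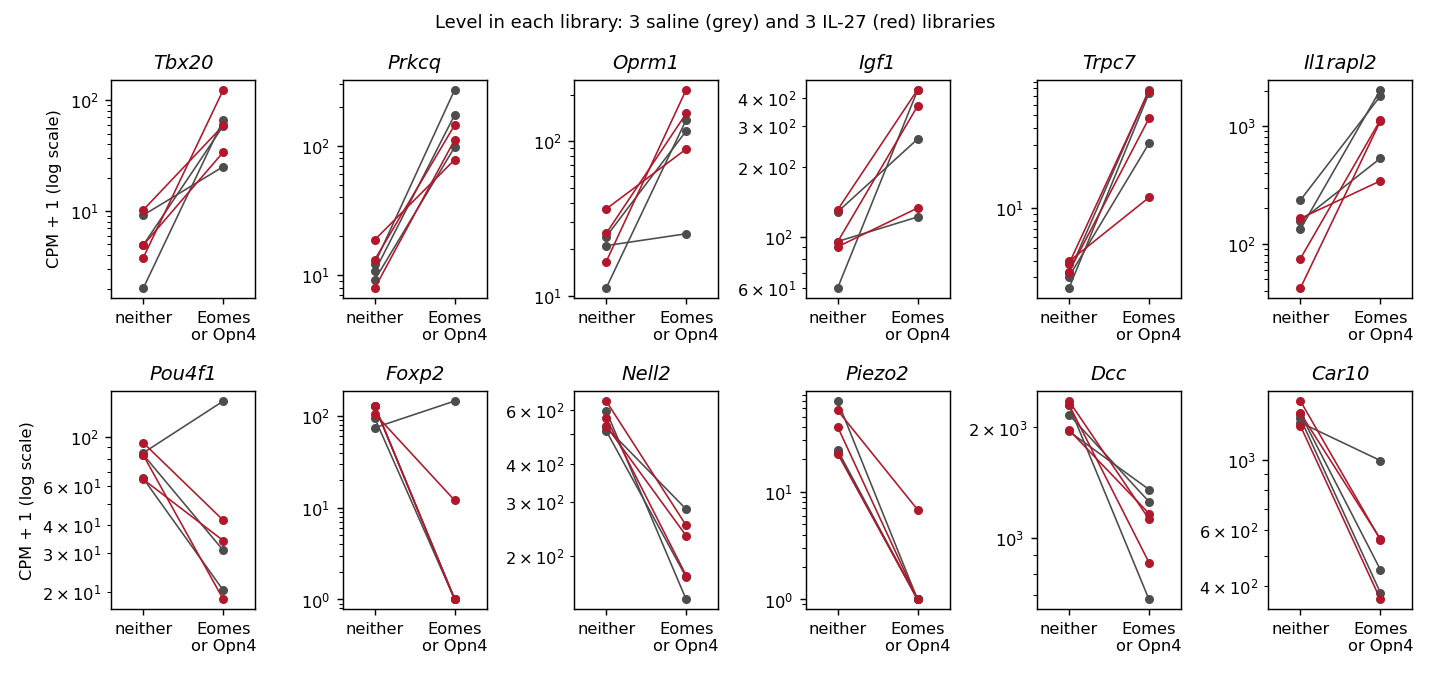
Level of 12 genes in each library, as CPM + 1 on a log scale, in nuclei with neither gene (left of each panel) and with Eomes or Opn4 (right); lines join the 2 classes of 1 library, in saline (grey) or IL-27 (red). Tbx20, Prkcq, Trpc7 and Il1rapl2 lie above the comparison in all 6 libraries, and Pou4f1 and Foxp2 are lower in 5 of 6, with saline replicate 6 going the other way.

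Transcription factors that divide ganglion cells into types moved in both directions. Of 46 listed, 24 were tested, with 3 higher, 4 lower (29.2% called, against 3.45% of all genes) and a median log2FC of -0.26. Tbx20 and Pou4f2 entered the test only through their level in the members, so their part in the 29.2% is no separate evidence. Besides Tbx20, the higher factors were Pou4f2, a POU factor of ganglion cell differentiation (46.2 ± 14.7 against 17.9 ± 4.61 CPM, log2FC 1.48, SE 0.33, adjusted p = 0.00705), and Onecut1, also found in horizontal cells (78.3 ± 33.3 against 40.5 ± 5.97 CPM, log2FC 1.04, adjusted p = 0.0136). Pou4f2 was found in 27 of 55 members and 136 of 806 other nuclei, its libraries did not overlap between classes, and 13 of its 16 alternative fits called it. Onecut1 was lost at matched depth (adjusted p = 0.468).

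The related factor Pou4f1 was lower, with 29.8, 19.3, 145, 33.1, 17.5 and 41.1 CPM in members against 63.5 to 93.4 CPM (log2FC -1.18, SE 0.30, adjusted p = 0.022). It was lower in 5 of 6 libraries and higher in saline replicate 6, where 6 UMIs among 5 nuclei gave the value, and 10 of its 17 alternative fits called it. Foxp2 had 7 UMIs in 2 of the members, 6 of them in a single nucleus of saline replicate 6, against 1091 UMIs in 131 other nuclei (26.0 ± 58.5 against 109.6 ± 22.8 CPM, log2FC -3.58, adjusted p = 0.000129). The other lower factors were Satb1 (log2FC -0.77, adjusted p = 0.0243), lost at matched depth (adjusted p = 0.54), and Bnc2 (log2FC -1.41, adjusted p = 0.0333), whose 44 UMIs lay in 5 members and which DESeq2 did not call (adjusted p = 0.379). Tbr1, a T-box factor of other ganglion cell types, had no UMI in the members, which allows up to 3.88 CPM, against 5.65 CPM over the comparison nuclei. Isl1, a general ganglion cell factor, had 125 ± 46.0 and 137 ± 17.5 CPM (log2FC -0.06, adjusted p = 0.975).

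The 12 genes in each direction with the smallest adjusted p (absolute log2FC of at least 1, same direction in 6 of 6 libraries) included Prkcq, the theta isoform of protein kinase C, as the gene with the largest log2FC among those higher. It had 173, 270.1, 96.7, 77.1, 111 and 144 CPM in the members and 6.93 to 17.7 CPM in the comparison (log2FC 3.75, SE 0.29, adjusted p = 1.54e-09), in 24 of 55 against 33 of 806 nuclei. Ndnf, a secreted neuronal factor, had 144 ± 37.0 against 25.7 ± 6.71 CPM (log2FC 2.56, SE 0.23, adjusted p = 2.97e-08). Tmcc3, a coiled-coil membrane protein, had 280.4 ± 106 against 55.3 ± 9.36 CPM (log2FC 2.27, SE 0.18, adjusted p = 3.44e-09). The libraries of the 2 classes did not overlap for these 3 genes, which 2.57% of all genes tested also showed.

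Further named genes were Parm1 (log2FC 2.21, adjusted p = 1.48e-06), Myo10, a filopodial myosin (log2FC 1.99, adjusted p = 2.58e-06), and the adhesion gene Sdk2 (log2FC 1.77, adjusted p = 2.32e-07). Ccdc192 (log2FC 2.97), 4930511M06Rik (2.68) and Gm19519 (2.95) were also named and lie at 1 locus: in GENCODE M21 Ccdc192 overlaps the other 2 on the opposite strand, so that they cannot be counted as separate signals. Ctxn3, which overlaps 4930511M06Rik on the opposite strand, was called there too (log2FC 3.03, adjusted p = 1.48e-06). Kitl, the ligand of the receptor Kit, was chosen after its values were seen, at 307 ± 59.6 against 125 ± 13.1 CPM (log2FC 1.33, SE 0.16, adjusted p = 5.93e-06), with no overlap of the classes.

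Il1rapl2, an interleukin-1 receptor family member of the alpha ganglion cell list, had the highest UMI total among the 12 higher genes picked by adjusted p. It had 2036, 1800.5, 532, 342, 1129 and 1103 CPM in the members against 41.1 to 234 CPM (log2FC 3.16, SE 0.31, adjusted p = 9.04e-08). The levels of the classes did not overlap. Its 1030 UMIs came from only 20 of the 55 nuclei, with 184 in a single nucleus, and at matched depth its adjusted p was 0.0509 (log2FC 2.71). Of the 10 alpha ganglion cell genes, 5 were tested and 2 were higher (40%, against 3.45% of all genes), with a median log2FC of 0.74. The other was Spp1 (osteopontin), with 5.95, 141, 24.2, 11, 34.9 and 199 CPM in members and 10.3 to 22.6 CPM in the comparison (log2FC 2.01, adjusted p = 0.0059). Spp1 was above the comparison in 4 of 6 libraries, 20 of its 60 UMIs lay in a single nucleus, and 11 of 15 alternative fits called it. It entered the test only through its level in the members, so its part in the 40% is no separate evidence.

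Of 26 neuropeptide and granin genes, 8 were tested and 2 were higher (25%, against 3.45% of all genes), with a median log2FC of 0.47. Pcsk1, a prohormone convertase, had 135 ± 86.3 against 33.4 ± 10.0 CPM and was higher in all 6 libraries (log2FC 1.78, SE 0.28, adjusted p = 0.000146). Scg2, a secretogranin, had 183 ± 79.1 against 112 ± 27.2 CPM (log2FC 0.85, adjusted p = 0.0256), which was lost at matched depth (adjusted p = 0.294). Of 17 genes for transmitter release and neurofilaments, 13 were tested and 2 were higher (15.4%, against 3.45% of all genes). These were Prph, the filament protein peripherin (34.4 ± 17.5 against 6.76 ± 2.34 CPM, log2FC 2.34, SE 0.42, adjusted p = 0.000661), and Syt2, a calcium sensor of vesicle release (log2FC 0.86, adjusted p = 0.00756), lost at matched depth (adjusted p = 0.105). Prph entered the test only through its level in the members, so its part in the 15.4% is no separate evidence. Nefl, the light neurofilament, had 147 ± 19.2 and 128 ± 40.7 CPM (log2FC 0.31, adjusted p = 0.633). Of 18 sodium and calcium channel genes tested, 1 was higher (5.56%, near the 3.45% of all genes). This was Cacna2d3, an auxiliary calcium channel subunit (325 ± 76.3 against 182 ± 27.5 CPM, log2FC 0.86, adjusted p = 0.000911). With at least 2 UMIs of Eomes or Opn4 asked of each member its adjusted p was 0.0923.

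Receptors for glutamate, GABA and glycine were more often lower than higher among those called. Of 39 genes, 36 were tested, with 1 higher and 5 lower (16.7% called, against 3.45% of all genes). Their median log2FC was -0.35 against -0.02 over all genes. Grm7, a metabotropic glutamate receptor, had 857, 527, 1354, 871, 710.0 and 500 CPM in the members against 1326 to 1738 CPM (log2FC -0.99, SE 0.17, adjusted p = 0.000331), lower in 5 of 6 libraries. Gabrb2, a GABA-A receptor subunit, had 111 ± 56.2 against 227 ± 11.6 CPM (log2FC -1.19, SE 0.19, adjusted p = 0.00023), with the members lower in every library, and at matched depth its adjusted p was 0.19. Gria3 (log2FC -0.84, adjusted p = 0.00718) and Grik1 (-0.99, adjusted p = 0.0182) were also lower, each in 5 of 6 libraries, with 14 of 17 and 9 of 17 alternative fits calling them. Grik1 is also a bipolar cell gene. The subunit Gabra3 was the 1 higher receptor, at 77.3 ± 37.0 against 23.8 ± 5.79 CPM (log2FC 1.88, SE 0.31, adjusted p = 0.000266), in 26 of 55 against 133 of 806 nuclei. It entered the test only through its level in the members, so its part in the 16.7% is no separate evidence.

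Of 72 guidance and adhesion genes 64 were tested, with 6 higher and 14 lower (31.2%, against 3.45% of all genes) and a median log2FC of -0.06. Sdk2, an immunoglobulin adhesion protein of retinal wiring, had 345, 277, 96.7, 231, 297 and 288 CPM in the members against 55.8 to 91.8 CPM (log2FC 1.77, SE 0.18), without overlap. Unc5d, a netrin receptor, had 1994, 1029, 266, 1345, 1577 and 1075 CPM against 281 to 543 CPM (log2FC 1.34, SE 0.24, adjusted p = 0.000713), and saline replicate 6 was below its comparison. With at least 2 UMIs of Eomes or Opn4 per member its adjusted p was 0.137. Sema5a (log2FC 0.92), Sema6d (1.15), Cdh6 (0.94) and Cdh18 (0.65) were the other higher genes, and for all 4 saline replicate 6 or saline replicate 2 went the other way.

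On the lower side, Dcc, the attractive netrin receptor, had 679, 1254, 1354, 1124, 856 and 1164 CPM against 1950.3 to 2360.1 CPM (log2FC -1.07, SE 0.16, adjusted p = 6.64e-05). Sema6a, a transmembrane semaphorin, had 97.9 ± 28.0 against 269.8 ± 25.6 CPM (log2FC -1.48, SE 0.18, adjusted p = 5.93e-06). The Slit receptor Robo2 (log2FC -0.67, adjusted p = 0.00394) and its ligand Slit2 (log2FC -0.94, adjusted p = 0.000664) were both lower, and both were lost at matched depth (adjusted p = 0.0827 and 0.152). None of these 4 genes overlapped between the classes. The other 10 lower genes were Cdh4, Cntn4, Cntn5, Ntng1, Nrp1, Sema3e, Epha4, Pcdh7, Pcdh10 and Pcdh17.

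**Figure D4:**
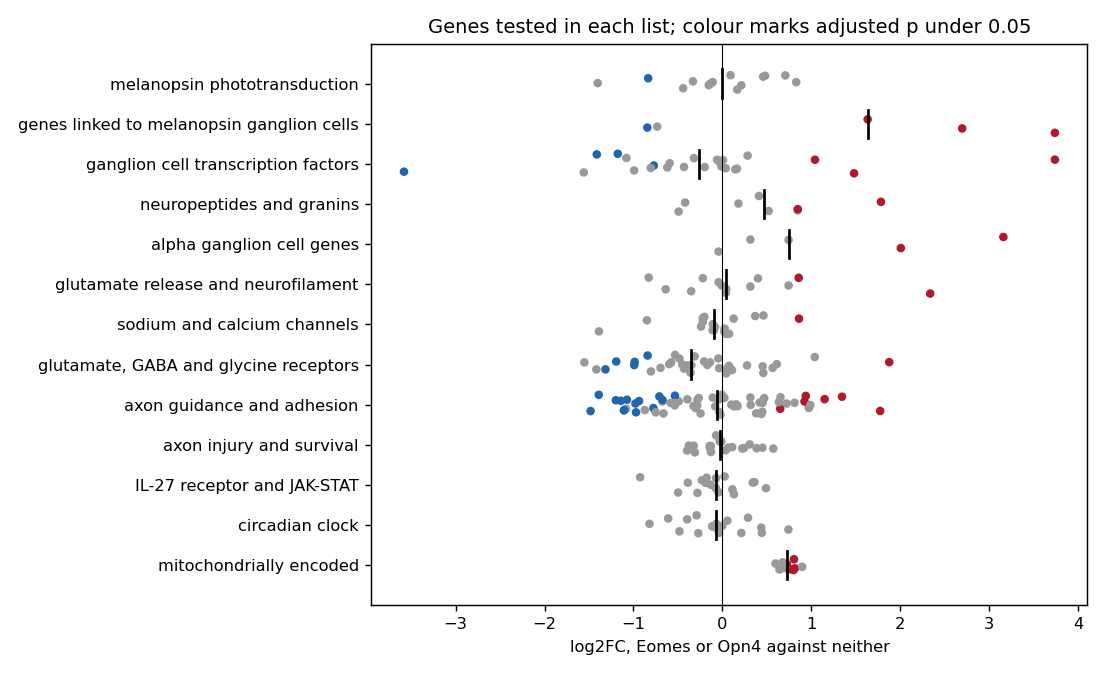
Log2FC of nuclei with Eomes or Opn4 against nuclei with neither for every tested gene of 13 lists (1 point per gene, black bar at the list's median). Red and blue mark genes called higher and lower; receptors sit to the left (median -0.35), and the mitochondrially encoded genes form a narrow group around 0.73.

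Car10 and Nell2 had the smallest adjusted p among the named lower genes. Car10, a protein related to carbonic anhydrases, had 381, 450.1, 991, 562, 559 and 363 CPM in the members against 1275 to 1525 CPM (log2FC -1.43, SE 0.16, adjusted p = 1.93e-06). Nell2, a secreted neuronal protein, had 208 ± 54.9 against 561 ± 49.0 CPM (log2FC -1.44, SE 0.17, adjusted p = 3.88e-06). Neither overlapped between the classes. Piezo2, a mechanically gated channel, had 1 UMI in the 55 members and 381 UMIs in 92 of the 806 other nuclei, a ratio of 29.7 (exact 95% counting interval 5.30 to 1176) in CPM over all nuclei (adjusted p = 5.01e-05). That interval takes each UMI as independent and leaves out the spread between nuclei and between libraries. Pde5a, a cyclic GMP phosphodiesterase, had 9.32 ± 9.25 against 66.9 ± 13.4 CPM (log2FC -3.01, SE 0.43, adjusted p = 4.47e-05).

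Further named lower genes were Lrrc7 (log2FC -1.18), Slc24a3 (-1.38), D130009I18Rik (-3.13), Ano3 (-1.52) and Zfp385b (-1.39). D130009I18Rik lies 144792 bases from Pou4f1 in GENCODE M21 and had 14 UMIs in 4 members, 8 of them in saline replicate 6, where members and comparison stood at 193 CPM each. Ano3, Zfp385b and Il1rapl2 were among 4 of the 24 genes that lost their call at matched depth (log2FC -1.28, -1.31 and 2.71 there, adjusted p = 0.0619, 0.103 and 0.0509), and the other 20 were called under every alternative in which they could be tested. The 24 were picked by their adjusted p in largely the same nuclei, so this is no separate support.

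The remaining lists are given against the 3.45% of all genes called, which leaves a count of 0 in a short list uninformative. Injury and survival genes had 0 calls among 20 tested (median log2FC -0.02), IL-27 receptor and JAK-STAT genes 0 of 17, clock genes 0 of 17, heat shock genes 0 of 17 and cytosolic ribosomal proteins 0 of 77. The interferon list had 1 higher gene of 11 (Irf2, log2FC 0.69, adjusted p = 0.0346, called in 9 of 17 alternative fits) and the immediate early genes 1 of 7 (Junb, log2FC 1.86, adjusted p = 0.00459, called in 12 of 13). Junb entered the test only through its level in the members. Of 11 mitochondrially encoded genes tested, 5 were higher (45.5%) and all 11 had a log2FC above 0 (median 0.73). Their summed level was 2619, 6340.3, 4642, 2049.9, 2491 and 7994 CPM in the members and 1668 to 3663 CPM in the comparison, higher in 5 of 6 libraries. Keeping only nuclei under 1% mitochondrial counts left 115 higher and 116 lower genes. That limit kept 8 of 9 members in saline replicate 2 and 9 of 10 in IL-27 replicate 10, the libraries with the highest summed levels. The median member had 0.210% mitochondrial counts and the highest 3.30%. By library, the median member had 0.203, 0.142, 0.373, 0.162, 0.133 and 0.292%. The 1% limit took 1 member from each of those 2 libraries. The summed UMIs fell from 155513 to 129728 in saline replicate 2 and from 145992 to 121559 in IL-27 replicate 10. Single nuclei can thus weigh heavily in these sums, and the higher mitochondrial level cannot be said of the typical member.

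For some of these genes the pooled level of the 10 nuclei with both genes lay apart from that of the other members. Such levels carry no spread between libraries, and a single nucleus can weigh heavily in them, as with Trpc7 above. Over all UMIs of each kind of nucleus, with no test, Trpc7 was at 202 CPM in nuclei with both genes, 2.51 with Eomes only and 43.3 with Opn4 only. Igf1 was at 648, 241 and 290.1 CPM, and Tmcc3 at 690.1, 145 and 195 CPM. Nell2 was at 13.9, 273 and 229 CPM, and Grm7 at 20.9, 955 and 745 CPM, so that both were lowest where both genes were found. Pou4f1 had no UMI in those 10 nuclei, which allows up to 20.9 CPM, against 32.6 and 56.3 CPM. Tbx20 was at 90.6, 60.2 and 64.9 CPM and was found in 7 of 10, 4 of 27 and 3 of 18 nuclei. The median depth was 12710, 13280 and 11994.5 UMIs.

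Nuclei with Opn4 were compared with nuclei that had Eomes and no Opn4, with the library as a block. IL-27 replicate 4 had no Opn4 nucleus and dropped out, leaving 10 sums from 5 libraries. Of 1269 genes tested, 2 were higher with Opn4 (0.158%) and 0 lower by edgeR (24 lower at an unadjusted p under 0.05, and 0 by DESeq2). Gpc5, a glypican of the cell surface, had 1905, 639, 561, 380.1 and 841 CPM with Opn4 and 412, 111, 0, 45.6 and 137 CPM without it, in saline 1, 2 and 6 and IL-27 5 and 10 (log2FC 2.63, SE 0.38, adjusted p = 0.0053). Ptprm, a receptor tyrosine phosphatase of cell adhesion, had 346, 682, 374, 511 and 381 CPM with Opn4 and 67.0, 127, 0, 79.9 and 68.6 CPM without it (log2FC 2.53, SE 0.35, adjusted p = 0.0053). Both were higher in all 5 libraries compared, but the 6 Eomes nuclei of IL-27 replicate 4 held 606 CPM of Gpc5 and 518 CPM of Ptprm. In saline replicate 6 the side without Opn4 was 1 nucleus with 9259 UMIs, so its 0 CPM for both genes is weakly measured. Neither was called without saline replicate 1 or without IL-27 replicate 5 (smallest adjusted p over all genes 0.0691 and 0.155).

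IL-27 treated and saline control libraries were compared within the members, to find whether these ganglion cells responded to the cytokine. Of 2933 genes tested by edgeR, 0 were called higher or lower (0.0%), while 41 had an unadjusted p under 0.05 on the higher side and 50 on the lower. DESeq2 called 0, with a smallest adjusted p of 0.141. In the nuclei with neither gene, 0 of 11674 genes were called (0.0%), while 196 had an unadjusted p under 0.05 on the higher side and 230 on the lower, and DESeq2 called 0. The IL-27 and saline ranges did not overlap for 8.9% of the genes tested in members and 9.21% of those in the comparison.

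Il27ra, the specific chain of the IL-27 receptor, had no UMI in any of the 861 ganglion cell nuclei. Il6st, the shared receptor chain, had 5, 8, 1, 0, 8 and 3 UMIs in the members. Stat3, a transcription factor downstream of the receptor, had 112 ± 31.7 CPM in IL-27 and 109 ± 22.1 CPM in saline members (n = 3 each; log2FC 0.08, SE 0.36, adjusted p = 0.999 by edgeR). Of 8 JAK-STAT genes tested, 6 had a log2FC above 0, with a median of 0.05 against 0.01 over all genes, and of 9 melanopsin cascade genes 6 were above 0, with a median of 0.03. Igf1 had 310.1 ± 157 CPM in IL-27 and 271 ± 154 in saline, and Trpc7 44.3 ± 32.2 and 59.8 ± 26.1 CPM. The mix of nuclei differed between libraries, since IL-27 replicate 4 held no Opn4 nucleus, and its part in these values was not tested.

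The genes with the smallest unadjusted p in the members, named after their values were seen, were Pde1c, Kirrel3 and Dscaml1. Pde1c, a calcium-dependent phosphodiesterase, had 143, 367 and 339 CPM in saline and 11, 98.9 and 34.2 CPM in IL-27 (log2FC -2.30, SE 0.52, adjusted p = 0.999), and the groups did not overlap. In the comparison nuclei it had 393 ± 83.7 CPM in saline and 424 ± 42.2 in IL-27. Kirrel3, an adhesion protein, had 202 ± 152 CPM in saline and 885 ± 410.0 in IL-27 members (log2FC 1.94, SE 0.47, adjusted p = 0.999). Dscaml1, also an adhesion protein, had 30.5 ± 36.6 and 139.8 ± 87.8 CPM (log2FC 2.91, SE 0.76, adjusted p = 0.999), with overlap.

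Whether the change with IL-27 differed between the classes was tested as an interaction over the 12 sums. Of 7937 genes, 0 were called in either direction by edgeR (0.0%), with 164 and 131 at an unadjusted p under 0.05, and 0 by DESeq2. In simulated data the interaction fit recovered only 48% of 200 genes given a log2 change of 2. The lack of calls therefore does not show that the classes responded alike. Pde1c had the smallest unadjusted p, with an adjusted p of 0.81 (log2FC difference -2.37, SE 0.52).

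**Figure D5:**
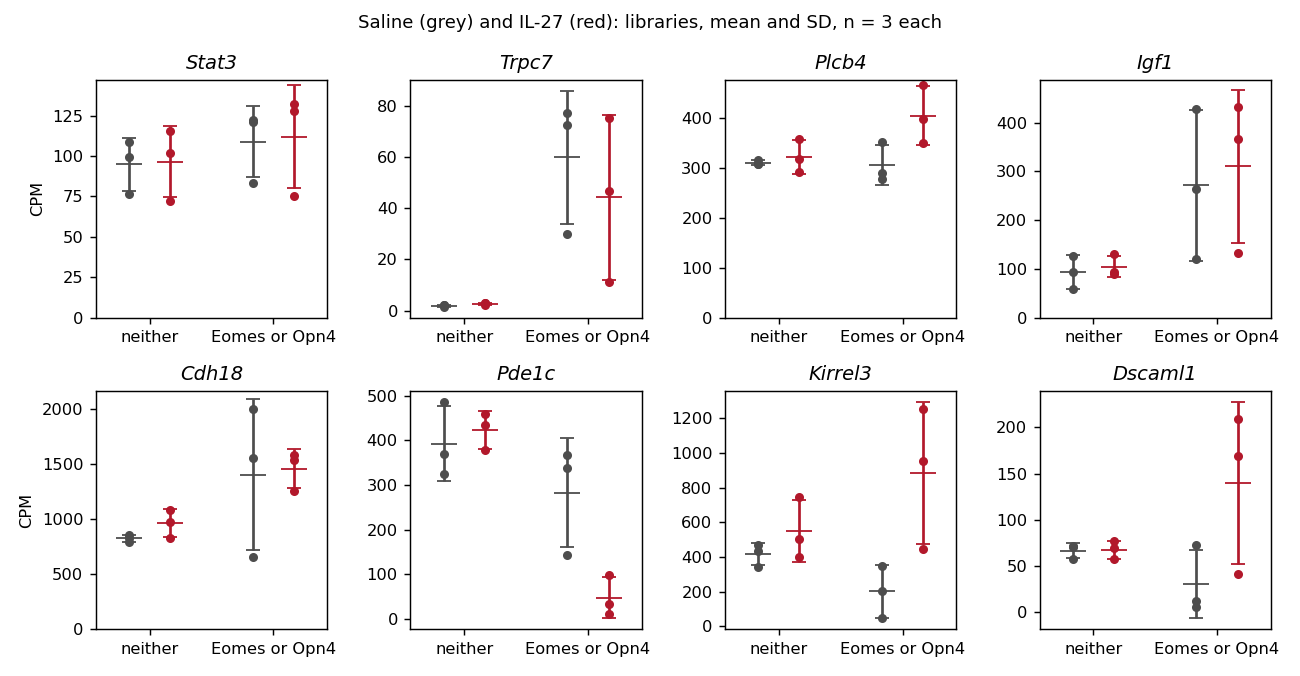
CPM of 8 genes in saline (grey) and IL-27 (red) libraries, in nuclei with neither gene (left) and with Eomes or Opn4 (right); points are libraries, and the bar and whiskers the mean and SD (n = 3). Stat3 overlaps in both classes, and Pde1c lies lower in the 3 IL-27 libraries of members (11 to 98.9 CPM) than in the saline ones (143 to 367 CPM), with an adjusted p of 0.999.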

How the data were processed

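Single-nucleus RNA-seq libraries of 3 saline control and 3 IL-27 treated retinas were used. The authors made the deposited UMI counts per gene and nucleus with Cell Ranger (file header 8.0.1; version 9.0.1 and Seurat 5.2.1 per the submitters' processing notes), and the genome build is not given in the sources used here. Raw counts of 32285 genes were summed per library and class. Genes were filtered with filterByExpr at a count minimum of 10, TMM factors were computed, and the quasi-likelihood test of edgeR 4.0.16 (glmQLFit, glmQLFTest; R 4.3.3) was applied with Benjamini-Hochberg adjustment over all genes tested and a threshold of 0.05. DESeq2 1.42.0 was an alternative. Shares were compared by a two-sided exact permutation test (scipy 1.17.1). Doublets, the 8% of each library with the highest Scrublet scores (scanpy 1.11.5), were kept. The fits were tested on simulated data in which 200 genes had a log2 change of 2. The class fit recovered 86.5% of them, and Opn4 against Eomes without Opn4 73%. IL-27 against saline recovered 82% in members and 93.5% in nuclei with neither gene, and the interaction 48%. Gene positions came from GENCODE M21, matched by identifier for 99.8% of genes. Members summed to 41357 to 171821 UMIs per library, which limits genes of low level. The class comparison held the library as a block, since each library gave both classes. Members, lists and tests were chosen with earlier results of these data known. Named genes were the 12 per direction with the smallest adjusted p, an absolute log2FC of at least 1 and the same direction in all 6 libraries, plus members of the lists. The alternatives were other normalizations and filters, leaving out each library, depth matching, thinning, and stricter nucleus filters; keeping nuclei with Slc6a9, Trpm1 or Abca8a was added after seeing the data. Some genes are not reported here.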

Additional observations from a re-analysis of the deposited data

How the results depend on the processing

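No paired analysis was possible because the IL-27 and saline groups share no replicate numbers. For the class comparison, without the replicate block, 143 genes were higher and 155 lower. Against 125 higher and 149 lower genes, 57 were higher and 170 lower with at least 2 UMIs of Eomes or Opn4 per member (median log2FC of all genes -0.21), 35 higher and 30 lower at matched depth (2807 genes tested), and 239 higher and 246 lower when nuclei with Slc6a9, Trpm1 or Abca8a were kept, an alternative chosen after seeing the data. DESeq2 called 90 lower, and 374 were lower with no filter on low counts. Leaving out 1 library gave 80 to 160 higher and 95 to 167 lower genes, both lowest without saline replicate 1. For IL-27 against saline in members, no filter gave 6 higher and 2 lower, and leaving out 1 library 0 to 1 higher (1 without saline replicate 6). For the interaction, no filter gave 4 higher and 2 lower, leaving out nuclei with Gad1, Gad2 or Slc32a1 gave 3 higher, at least 2 UMIs gave 1 lower, and leaving out 1 library gave 0 to 1 higher and 0 to 3 lower (3 without IL-27 replicate 5, 2 without saline replicate 1). For Opn4 against Eomes without Opn4, no filter gave 5 higher and 3 lower, no replicate block 1 higher, and leaving out 1 library 0 to 2 higher and 0 to 1 lower. There, 0 were higher without nuclei with Gad1, Gad2 or Slc32a1, without nuclei far from the median depth, at matched depth, and with the exclusion genes kept (1 lower). The difference in share ran from 0.620 to 3.81 points when 1 library was left out. The causes were not tested. Of 401 alternative fits of the 24 named genes, 0 reversed and 4 lost the call. These genes were picked for a small adjusted p and the same direction in all 6 libraries. The alternatives used largely the same nuclei, so this count is no separate support.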

Other observations

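The following called genes outside the lists were picked by hand after their values were seen, and stand for no group. Among those higher in ganglion cell nuclei with Eomes or Opn4 were Dgkb, a diacylglycerol kinase (213 ± 67.2 against 87.9 ± 15.7 CPM, log2FC 1.28, adjusted p = 3.02e-05 by edgeR), and Slc24a2, a sodium, calcium and potassium exchanger (611 ± 126 against 296 ± 25.3 CPM, log2FC 1.05, adjusted p = 5.71e-05), whose relative Slc24a3 was lower. The classes overlapped for neither. At matched depth the adjusted p was 0.367 for Dgkb, and with at least 2 UMIs of Eomes or Opn4 per member it was 0.604 for Slc24a2. The phosphodiesterase Pde7b was higher (225 ± 73.8 against 97.5 ± 20.6 CPM, log2FC 1.20, adjusted p = 0.000105; 0.0793 at matched depth).

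Among the lower genes were the phosphodiesterase Pde3a (111 ± 93.1 against 262 ± 27.2 CPM, log2FC -1.53, adjusted p = 0.000319 by edgeR), lower in all 6 libraries and called under all 17 alternatives, and Itpr1, an inositol trisphosphate receptor (92.6 ± 53.9 against 205 ± 10.6 CPM, log2FC -1.36, adjusted p = 0.000419; 0.382 at matched depth). The potassium channel gene Kcnd2 had 1387 ± 574 against 2794 ± 532 CPM (log2FC -1.12, adjusted p = 0.000477), and at matched depth its log2FC was -0.32 with an adjusted p of 0.823.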
